A study of Homo sapiens with 6 samples.

Results

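Aminoacyl-tRNA synthetases are the enzymes that join each amino acid to its transfer RNA, the step that fixes the meaning of the genetic code. Most cells carry a cytosolic set, which serves the ribosomes of the cytoplasm, and a second set that is encoded in the nucleus and imported into mitochondria. The 35 genes described here are 19 cytosolic enzymes or subunits (names ending in 1, with FARSA and FARSB) and 16 mitochondrial enzymes (names ending in 2). They were chosen by name from the 38126 genes in each file, and all 35 passed the filter on low values that left 16171 genes to test.

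Expression was measured by RNA-seq of total RNA in HK-2 cells, an immortalised human line of proximal tubular epithelium, the first segment of the kidney tubule. There were 3 untreated libraries and 3 from cells given phosphoramidon, a compound that blocks neprilysin and other zinc metallopeptidases, with both groups labelled 24 h and grown in a serum-free keratinocyte medium that holds EGF and pituitary extract. The labels give no dose, name no vehicle in the untreated cells, and carry the unexplained letters CSE in the titles of the untreated libraries, whose group comes from their treatment field. Separate cultures are not stated for the replicates. The spread behind each p-value is therefore that between libraries and may be technical.

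Values were deposited as FPKM, which divide a gene's fragments by its length and by the library's assigned total. The assigned totals, found from the values, were 18690096 to 24919566 fragments per library. Of the markers of the labelled cell type, keratin KRT8, EPCAM and the renal lineage factor PAX8 were present at 26.9 to 80.4 FPKM on average in untreated cells, while the adhesion gene CDH1 stood at 0.391 FPKM and the renal factor PAX2 at 0.0242 FPKM. The tubular anion transporters SLC22A6 and SLC22A8 were listed at 0 in all 6 libraries and the endocytic receptor LRP2 at no more than 2 fragments. The leukocyte gene PTPRC and the loop of Henle gene UMOD had at most 1 fragment. Of 12 proximal tubule markers 6 could be tested. Of these, 3 (SLC34A1, GGT1 and MME) were lower with phosphoramidon, beside 18.0% of all tested genes. SLC34A1 was near the floor, at 2 to 24 fragments per library. The list summed to 3.002 to 3.35 FPKM untreated and 2.16 to 2.47 FPKM treated. Its largest parts were MME and GGT1, at 1.58 and 0.833 FPKM on average in untreated cells. The epithelial keratins KRT8 (80.4 ± 4.23 to 56.8 ± 1.95 FPKM) and KRT18 (38.2 ± 1.76 to 27.8 ± 0.525 FPKM) were also lower. Their part in the results below was not tested.

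Cytosolic synthetase transcripts are known targets of ATF4, a transcription factor of the integrated stress response. It is made when kinases such as GCN2, which senses uncharged transfer RNA, phosphorylate the initiation factor eIF2. ATF4 binds composite C/EBP-ATF elements, whose core TGATGNAA was searched on both strands in RefSeq promoters (GRCh38.p14, 250 bases before to 50 after each start). The table held promoters for 30 of the 35 genes, without LARS1, VARS1, YARS1, AARS2 and VARS2. A match was found for 7 of 16 cytosolic genes (43.8%) and 1 of 14 mitochondrial genes (7.14%), beside 4.46% of the 27305 genes in the whole table. A match is a run of letters and no measured binding site.

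The stretches around the matches are shown because they let the letters and their distance from the start be compared between genes. Of the 18 genes called lower that have a promoter in the table, 7 held a match and the others, WARS1, EPRS1, CARS2 and WARS2 among them, held none. GARS1, CARS1 and TARS1 each have another promoter in the table with 0 matches. Whether a match goes with a change was not tested. All are written in the direction of the gene, with the matched letters in capitals; TTGCATCA is TGATGCAA read on the other strand. The first base of the match is counted from the transcription start of RefSeq, with negative numbers before it. Stretches were cut at that start, or at the end of a match that reaches or passes it. The bases after the match therefore cannot be compared between all genes.
AARS1, chr16:70289660-70289719, minus strand, match from -187: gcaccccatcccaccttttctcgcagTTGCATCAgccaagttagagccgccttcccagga
GARS1, chr7:30594819-30594877, plus strand, match from -33: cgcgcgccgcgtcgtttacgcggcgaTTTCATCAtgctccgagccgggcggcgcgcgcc
IARS1, chr9:92293698-92293736, minus strand, match from -13: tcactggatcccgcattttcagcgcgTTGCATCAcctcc
MARS1, chr12:57488038-57488071, plus strand, match from -4: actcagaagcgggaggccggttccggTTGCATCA
CARS1, chr11:3057418-3057451, minus strand, match from -2: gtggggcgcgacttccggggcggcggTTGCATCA
TARS1, chr5:33440941-33440974, plus strand, match from 3: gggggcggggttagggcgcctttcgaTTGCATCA
NARS1, chr18:57621815-57621848, minus strand, match from 15: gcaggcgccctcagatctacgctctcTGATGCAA
YARS2, chr12:32756061-32756120, minus strand, match from -197: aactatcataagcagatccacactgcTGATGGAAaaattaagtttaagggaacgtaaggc

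In 6 of these 8 the letters were TGATGCAA, a choice made after the matches were seen. At least 1 promoter with that run was held by 6 of 16 cytosolic genes (37.5%), by 0 of 14 mitochondrial ones and by 1.08% of genes in the table. GARS1 carried TTTCATCA as read along the gene, and YARS2 carried TGATGGAA.

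In untreated cells the cytosolic genes lay well above the mitochondrial ones on this length-scaled measure. The cytosolic median was 26.7 FPKM, with a range of 4.08 (CARS1) to 71.2 (EPRS1), and the mitochondrial median was 5.05 FPKM, with a range of 0.623 (SARS2) to 46.0 (IARS2). EPRS1, which joins both glutamate and proline to their transfer RNAs, was the highest of all 35, followed by the isoleucine enzyme IARS1 and the threonine enzyme TARS1. IARS2, which serves isoleucine in mitochondria, was the highest mitochondrial gene, at rank 7 of the 35, and RARS2, which serves arginine there, was next at 15.8 FPKM and rank 17.

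**Figure D1:**
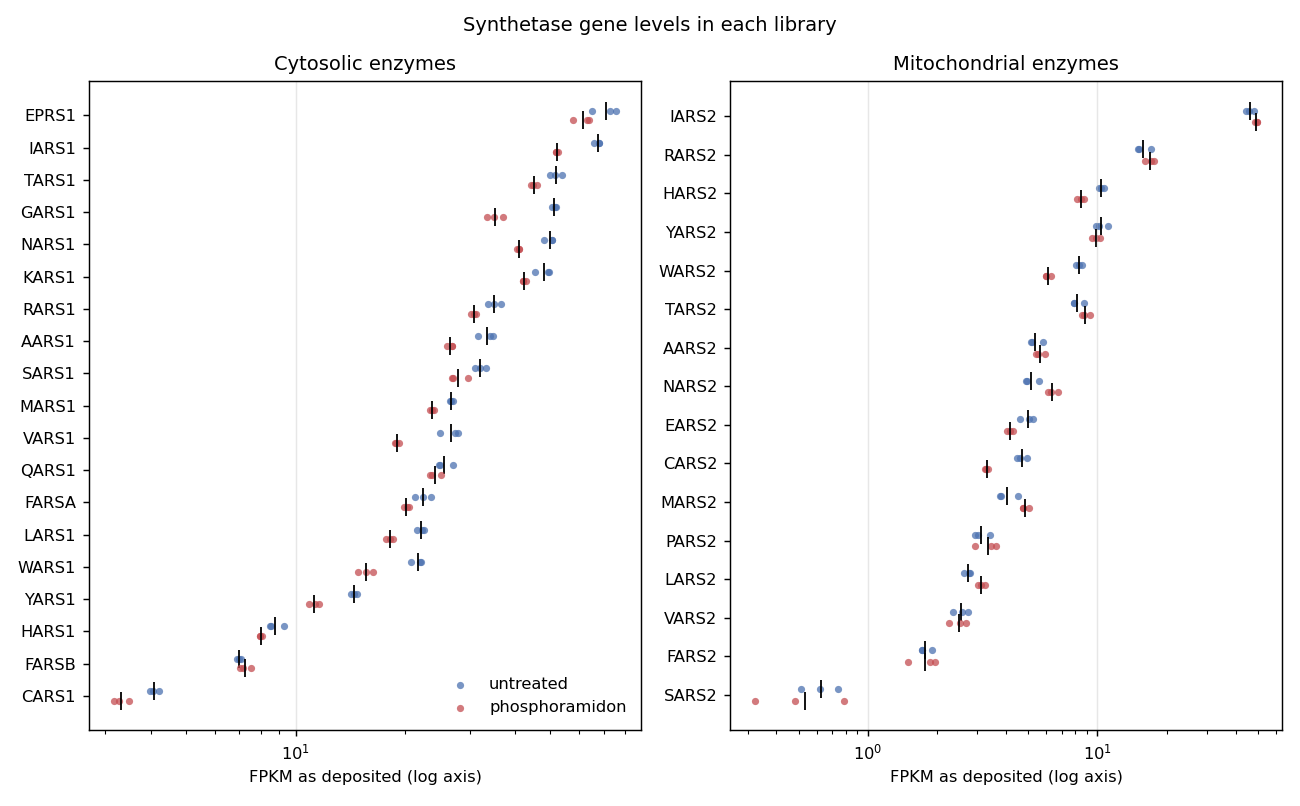
FPKM as deposited (log axis) for each gene in each library, cytosolic enzymes on the left and mitochondrial ones on the right, in order of the untreated mean; points are libraries and black ticks are group means. The phosphoramidon points lie to the left of the untreated points for 17 of 19 cytosolic genes, and for 4 of 16 mitochondrial genes (HARS2, WARS2, EARS2 and CARS2).

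In these deposited values the groups did not overlap, with phosphoramidon lower, for 17 cytosolic and 4 mitochondrial genes, beside 18.4% of all tested genes. They did not overlap, with phosphoramidon higher, for 4 mitochondrial genes (IARS2, LARS2, MARS2 and NARS2), beside 31.3% of all tested genes.

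With phosphoramidon, the cytosolic genes were lower almost throughout and the mitochondrial genes were mixed. In the fit across all genes, 17 of 19 cytosolic genes fell and 0 rose at a limma adjusted p below 0.05, beside 18.0% of all tested genes lower and 15.6% higher. All 19 had a log2 fold change below 0, as did 48.7% of all tested genes. Of the 16 mitochondrial genes 4 fell and 1 rose, and 4 of 16 lay near the background share. In either direction 22 of the 35 were called, beside 33.6% of all tested genes. Over all tested genes 2906 were lower and 2525 higher, a split that was 2169 lower and 3647 higher in the values as deposited, where 16 cytosolic and 4 mitochondrial genes were lower. The median log2 fold change was -0.28 for the cytosolic genes (range -0.61 to -0.02) and -0.04 for the mitochondrial ones (range -0.56 to 0.24), against 0.01 for all tested genes. At an unadjusted limma p below 0.05, 18 cytosolic genes were lower and 0 higher, and voom on recovered fragments also called 0 higher.

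The changes were modest in size: none of the 35 passed limma's treat test for a change above 1.5-fold, neither adjusted, nor at an unadjusted p below 0.05, nor with voom. Of all tested genes 0.804% did, 0.655% as lower. The sums over each set show the same contrast on the deposited scale. Cytosolic genes summed to 615, 625 and 619 FPKM in untreated replicates 1 to 3 and to 515, 513 and 508 FPKM in phosphoramidon replicates 1 to 3. These sums include GARS1 (51.2 to 35.2 FPKM on average) and KARS1 (48.2 to 42.3 FPKM), which serve both compartments. Mitochondrial genes summed to 133, 137 and 133 FPKM and to 135, 134 and 135 FPKM. A large part of the mitochondrial sums was IARS2 alone, at 46.0 FPKM untreated and 49.2 FPKM with phosphoramidon on average. The ratio of the cytosolic to the mitochondrial sum within a library does not depend on scaling between libraries. It was 4.63 ± 0.0473 untreated and 3.80 ± 0.0311 with phosphoramidon (SD, n = 3 per group, as for each SD below), and the groups did not overlap. In bulk libraries, fewer cells of one kind and less RNA per cell cannot be told apart.

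**Figure D2:**
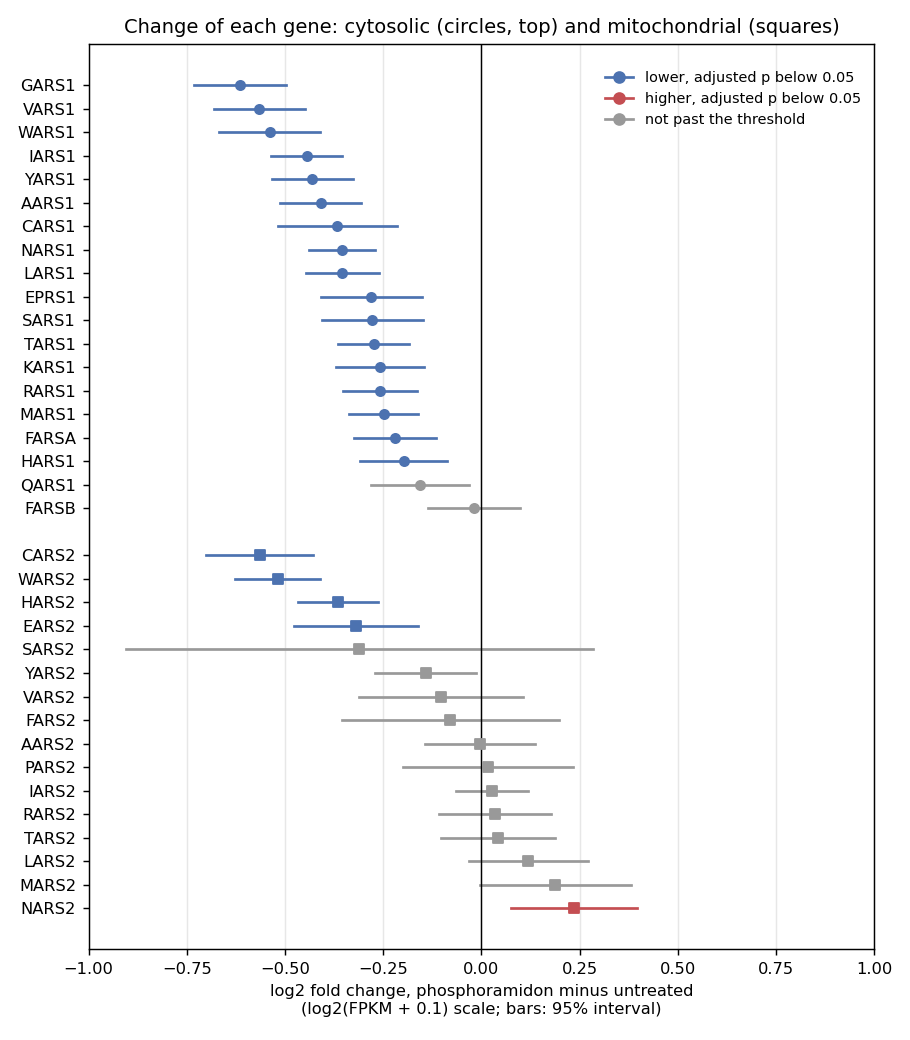
log2 fold change of each gene, phosphoramidon minus untreated, on the log2(FPKM + 0.1) scale, with 95% intervals from the limma fit; circles are cytosolic and squares mitochondrial genes, coloured by the test. The cytosolic genes form a run below 0 from GARS1 at -0.61 to FARSB at -0.02 (0.05 in the values as deposited), while the mitochondrial genes spread from CARS2 at -0.56 to NARS2 at 0.24.

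GARS1, the glycine enzyme, had the lowest log2 fold change of the 35 (ENSG00000106105, chromosome 7, 30594681 to 30634033 in GENCODE 29 on GRCh38). One gene makes both its cytosolic and its mitochondrial form. It stood at 51.6, 50.4 and 51.7 FPKM in untreated replicates 1 to 3 and at 37.0, 35.1 and 33.4 FPKM in phosphoramidon replicates 1 to 3. Every treated library lay far below every untreated one, and the log2 fold change was -0.61 ± 0.05 (SE), limma adjusted p = 7.7e-05. KARS1, the lysine enzyme and the other gene of this group that serves both compartments, fell by less, from 48.2 ± 2.35 to 42.3 ± 0.515 FPKM (log2 fold change -0.26).

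VARS1, the valine enzyme (ENSG00000204394, chromosome 6, 31777518 to 31795953), had 27.4, 27.9 and 24.9 FPKM untreated and 19.2, 18.7 and 18.8 FPKM with phosphoramidon. The treated libraries were tightly grouped below all untreated ones (log2 fold change -0.57 ± 0.05, SE, limma adjusted p = 1.1e-04). WARS1, the tryptophan enzyme and also an interferon-induced gene, went from 21.98, 20.7 and 22.1 FPKM to 16.3, 15.6 and 14.9 FPKM. Its log2 fold change was -0.54 ± 0.06 (SE), limma adjusted p = 2.2e-04, again without overlap.

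IARS1 had 68.2, 65.9 and 68.2 FPKM untreated and 52.4, 51.7 and 51.9 FPKM treated (log2 fold change -0.45 ± 0.04, SE, limma adjusted p = 9.5e-05). As one of the most abundant members, at 7252 to 12526 fragments per library, it was among the best measured. YARS1, the tyrosine enzyme, had 14.4, 14.8 and 14.2 FPKM against 11.6, 10.9 and 11.3 FPKM. Its log2 fold change was -0.43 ± 0.04 (SE), limma adjusted p = 2.2e-04, with the groups clear of each other.

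AARS1, the alanine enzyme, which also edits mischarged products, had 34.2, 34.8 and 31.7 FPKM against 26.9, 25.9 and 26.8 FPKM (log2 fold change -0.41). NARS1, the asparagine enzyme, had 48.2, 50.7 and 50.7 FPKM against 41.1, 41.1 and 40.6 FPKM (log2 fold change -0.35). LARS1, the leucine enzyme and a leucine sensor for mTORC1, had 21.5, 22.2 and 22.5 FPKM against 18.2, 18.4 and 17.7 FPKM (log2 fold change -0.35). In all 3 genes each treated library was below each untreated one, and limma adjusted p lay between 2.2e-04 and 3.6e-04.

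The other 9 cytosolic genes that fell had log2 fold changes from -0.37 for the cysteine enzyme CARS1 to -0.20 for the histidine enzyme HARS1. Between them were EPRS1 (-0.28), the serine enzyme SARS1 (-0.28), the threonine enzyme TARS1 (-0.27), KARS1 (-0.26), the arginine enzyme RARS1 (-0.26), the methionine enzyme MARS1 (-0.25) and FARSA (-0.22). HARS1, at 8.78 ± 0.458 against 8.02 ± 0.0447 FPKM, was the least secure of these calls: without untreated replicate 2 its limma adjusted p was 0.055, and in the values as deposited, with no factors between libraries, 0.085. EPRS1 had 65.0, 75.8 and 72.8 FPKM untreated, a wide spread, against 57.6, 63.1 and 63.8 FPKM treated, all below.

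The pair of cytosolic genes that did not pass were QARS1 and FARSB. QARS1, the glutamine enzyme, had 27.0, 24.8 and 24.8 FPKM against 24.98, 23.7 and 23.4 FPKM, with an overlap, a log2 fold change of -0.16 (95% interval -0.28 to -0.03) and a limma adjusted p of 0.057. It passed with voom (adjusted p = 0.014). FARSB encodes the beta subunit of the cytosolic phenylalanine enzyme and FARSA the alpha subunit. FARSB had 7.05, 6.99 and 6.91 FPKM against 7.18, 7.52 and 7.03 FPKM (log2 fold change -0.02, 95% interval -0.14 to 0.10). In the values as deposited its log2 fold change was 0.05. FARSA had 22.4, 23.4 and 21.2 FPKM against 20.2, 20.4 and 19.8 FPKM and fell. The ratio of FARSA to FARSB, looked at after these values were seen, was 3.18, 3.35 and 3.07 untreated and 2.81, 2.72 and 2.81 treated, without overlap (exact permutation p = 0.1, two-sided, the smallest that 3 against 3 allows). The deposited FPKM of FARSB imply a gene length of 7006 bases, against 3369 in GENCODE 29, so the level of this ratio depends on the annotation.

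Several cytosolic synthetases sit together in the multisynthetase complex, held by the scaffold proteins AIMP1, AIMP2 and EEF1E1. Beside 18.0% of all tested genes called lower, 6 of the 7 listed synthetases of the complex fell (median log2 fold change -0.26), as did 11 of the 12 free cytosolic genes (median -0.36). Among the scaffold genes AIMP2 fell (13.2 ± 1.28 to 11.4 ± 0.480 FPKM, log2 fold change -0.27, limma adjusted p = 0.033), though its deposited values overlapped between groups. EEF1E1 also fell (6.18 ± 0.277 to 5.49 ± 0.177 FPKM, -0.24), without overlap. AIMP1 had a log2 fold change of -0.06 and did not pass. The enzymes also fall into a pair of unrelated structural classes. In class I, 9 of 10 cytosolic genes fell (median -0.36), and in class II, 8 of 9 (median -0.27), against the same 18.0%. EPRS1, whose proline part is of class II, was counted in class I only.

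The 4 mitochondrial genes that fell were WARS2, CARS2, HARS2 and EARS2. WARS2, which serves tryptophan (ENSG00000116874, chromosome 1, 119031216 to 119140671), had 8.09, 8.57 and 8.30 FPKM untreated and 5.95, 5.96 and 6.30 FPKM with phosphoramidon. Its log2 fold change of -0.52 ± 0.05 (SE, limma adjusted p = 1.2e-04) stood beside -0.54 for its cytosolic partner WARS1. CARS2, which serves cysteine (ENSG00000134905, chromosome 13, 110641412 to 110713603), had 4.48, 4.95 and 4.61 FPKM against 3.27, 3.25 and 3.35 FPKM (log2 fold change -0.56 ± 0.06, SE, limma adjusted p = 2.4e-04). In both genes the treated libraries were close together and well below the untreated ones.

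HARS2, which serves histidine, had 10.2, 10.7 and 10.3 FPKM against 8.17, 8.74 and 8.47 FPKM (log2 fold change -0.37, limma adjusted p = 4.8e-04). HARS2 and HARS1 lie head to head on chromosome 5, and their GENCODE 29 exons share 437 bases, 11.7% of the exon length of HARS2. Whether counting used strand is not given in the sources used here, so reads in that stretch may belong to either gene. HARS2 also shares 152 bases (4.07%) with ZMAT2 on the same strand, a gene at 34.9 FPKM untreated and 38.6 FPKM treated, which strand could not separate. EARS2 charges glutamate, also onto the mitochondrial glutamine transfer RNA as a first step to glutamine. It had 5.22, 4.60 and 5.06 FPKM against 4.04, 4.15 and 4.27 FPKM (log2 fold change -0.32, limma adjusted p = 0.0082). In all 4 genes the groups did not overlap. The exons of CARS2, EARS2 and WARS2 each share bases with a gene on the other strand, ING1 (3.12% of the exon length of CARS2), UBFD1 (6.46% of EARS2) and an antisense RNA (4.68% of WARS2).

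NARS2, which serves asparagine (ENSG00000137513, chromosome 11, 78435961 to 78574874), was the one synthetase gene that rose, with 5.57, 4.94 and 4.89 FPKM untreated and 6.28, 6.11 and 6.71 FPKM treated. Each treated library was above each untreated one, and the log2 fold change was 0.24 ± 0.07 (SE), limma adjusted p = 0.032. The call was lost without untreated replicate 2 (adjusted p = 0.0998) or untreated replicate 3 (0.091), without phosphoramidon replicate 1 (0.068) or phosphoramidon replicate 3 (0.098), and without a filter (0.107). Its cytosolic partner NARS1 fell, as given above.

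Of the 11 mitochondrial genes that did not pass, the methionine enzyme MARS2 had the highest log2 fold change, 0.19, at 3.79, 3.77 and 4.52 against 5.03, 4.72 and 4.72 FPKM, and LARS2 followed with 0.12. MARS2 passed as higher in the values as deposited (adjusted p = 0.038) and without untreated replicate 3 (adjusted p = 0.025). IARS2, RARS2, TARS2, PARS2 and AARS2 had log2 fold changes of 0.03, 0.03, 0.04, 0.02 and -0.0042; for AARS2 it was 0.07 in the values as deposited. For IARS2, the most abundant of them, the 95% interval was -0.07 to 0.12. Lower values were those of FARS2 (-0.08), VARS2 (-0.10), YARS2 (-0.14) and SARS2 (-0.31).

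SARS2, which serves serine, was measured worst, with 26 to 58 fragments per library and 0.619, 0.738 and 0.511 against 0.480, 0.323 and 0.791 FPKM (95% interval of the log2 fold change -0.91 to 0.28). In GENCODE 29 it shares 46.2% of its exon length with a second gene model on the same strand and 10.8% with the ribosomal protein gene MRPS12 on the other. VARS2 shares 21.99% with GTF2H4, a subunit of the transcription factor TFIIH, on the same strand. How reads in shared exons were assigned is not given in the sources used here, so the levels of both genes are uncertain.

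Each amino acid with a partner in both compartments gives a cytosolic to mitochondrial ratio within each library, free of scaling between libraries. There were 16 such pairs, with EPRS1 set against both EARS2 and PARS2 and with FARSA and FARSB summed. The ratio was lower with phosphoramidon, without overlap between groups, in 10 pairs, higher without overlap in 2, and overlapping in 4. With 3 against 3, an exact permutation p cannot go below 0.1. All 12 pairs without overlap reached that value, with an adjusted p of 0.133 over the 16 pairs, so that no pair passed 0.05.

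**Figure D3:**
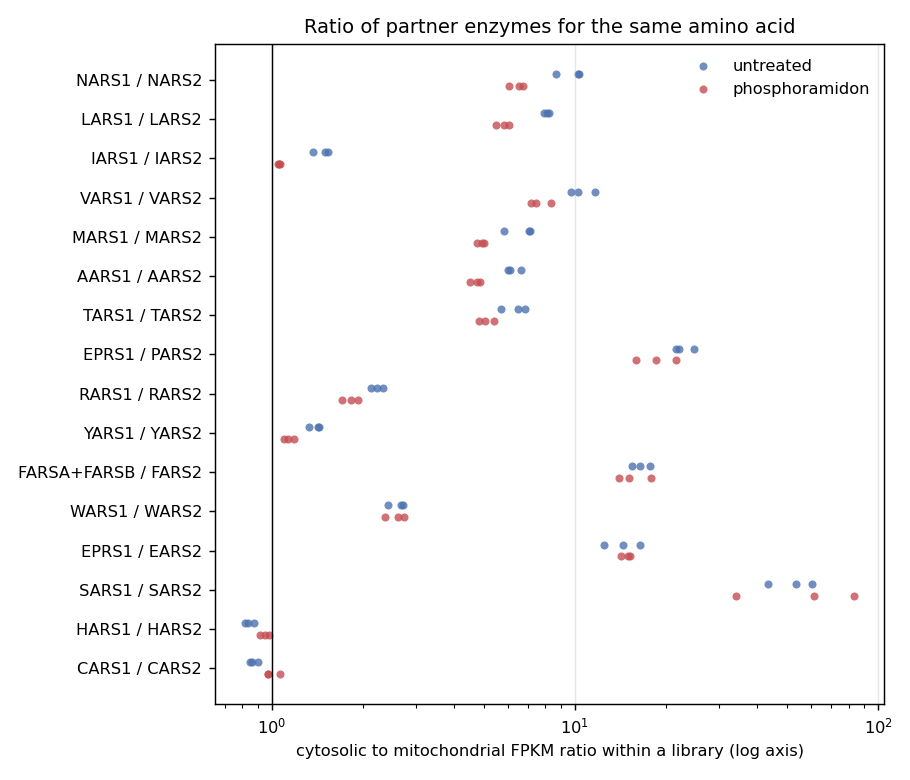
Ratio of cytosolic to mitochondrial FPKM within each library (log axis) for the 16 pairs, ordered by the change with phosphoramidon; points are libraries. The treated points lie left of the untreated ones in 10 pairs, from asparagine at the top (9.75 to 6.44) to tyrosine (1.40 to 1.14), and to the right in the histidine and cysteine pairs at the bottom.

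The asparagine pair moved most, with NARS1 to NARS2 ratios of 8.64, 10.2 and 10.4 untreated and 6.55, 6.73 and 6.05 treated (log2 change -0.59). For leucine the ratio went from 8.08 ± 0.137 to 5.80 ± 0.302 and for isoleucine from 1.47 ± 0.0870 to 1.06 ± 0.0108, near equal levels of IARS1 and IARS2. The level of the leucine ratio also depends on the annotation, since the FPKM of LARS2 imply 12462 bases against 6829 in GENCODE 29. For valine the ratio went from 10.5 ± 1.01 to 7.65 ± 0.596, for methionine from 6.68 ± 0.713 to 4.90 ± 0.136 and for alanine from 6.26 ± 0.342 to 4.72 ± 0.186. The levels of the alanine and arginine ratios share the limit given for leucine. AARS2 implies 5242 bases against 4298 in GENCODE 29, and RARS2 implies 2969 against 2545. Threonine, proline, arginine and tyrosine had log2 changes of -0.32, -0.30, -0.29 and -0.29. The proline groups were only just apart, at 21.56 for the lowest untreated ratio and 21.53 for the highest treated one. PARS2, its mitochondrial gene, had 159 to 196 fragments per library.

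The pairs for cysteine and histidine were the ones whose mitochondrial gene stood above its cytosolic partner in untreated cells, and their ratios were higher with phosphoramidon: CARS1 to CARS2 from 0.873 ± 0.0270 to 1.01 ± 0.0527 and HARS1 to HARS2 from 0.844 ± 0.0277 to 0.949 ± 0.0321. In both pairs each gene fell, the mitochondrial one by more. HARS1 had more fragments per library than HARS2 (1125 to 1703 against 568 to 963), at implied lengths of 7528 and 3719 bases. The level of the histidine ratio therefore depends on the annotation, and the 437 shared exon bases may affect it. The tryptophan ratio was 2.72, 2.42 and 2.66 untreated and 2.73, 2.62 and 2.36 treated, with a log2 change of -0.02. Glutamate (log2 change 0.04), phenylalanine (-0.09) and serine (0.10) also overlapped. The serine ratio carried the counting noise of SARS2 and ran from 34.1 to 83.2 among treated libraries.

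The genes around tRNA charging were read from lists chosen by function. The ATF4 gene itself fell from 119 ± 3.42 to 87.3 ± 2.40 FPKM (log2 fold change -0.51, limma adjusted p = 6.3e-05). A list of 12 genes known as ATF4 targets covered amino acid synthesis, one-carbon metabolism and amino acid uptake. Of these, 10 fell, beside 18.0% of all tested genes. Whether ATF4 played a part was not tested. The list had a median log2 fold change of -0.49, and the arginine transporter SLC7A1 and the weakly measured ASNS did not pass. The 4 of lowest p were the proline synthesis enzyme PYCR1 (-1.11), the cystine transporter SLC7A11 (-1.37), the serine synthesis enzyme PSAT1 (-0.70) and PSPH (-0.69), which makes serine in the last step of the same pathway. Among 14 genes of the integrated stress response, 5 fell and 2 rose, beside 18.0% of all tested genes lower and 15.6% higher. Those that fell were ATF4, the eIF2 subunit gene EIF2S1 (-0.18), the stress kinase gene EIF2AK3 (PERK, -0.17), the pseudokinase TRIB3 (-0.21) and CEBPB (-0.31). The factor ATF5 (0.34) and the double-stranded RNA kinase gene EIF2AK2 (0.15) rose. EIF2AK4, which encodes GCN2, had 6.46 ± 0.145 and 6.83 ± 0.195 FPKM (log2 fold change 0.01), and the stress factor DDIT3, whose exons share 355 bases with MARS1 on the other strand, had a log2 fold change of -0.15 and did not pass.

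**Figure D4:**
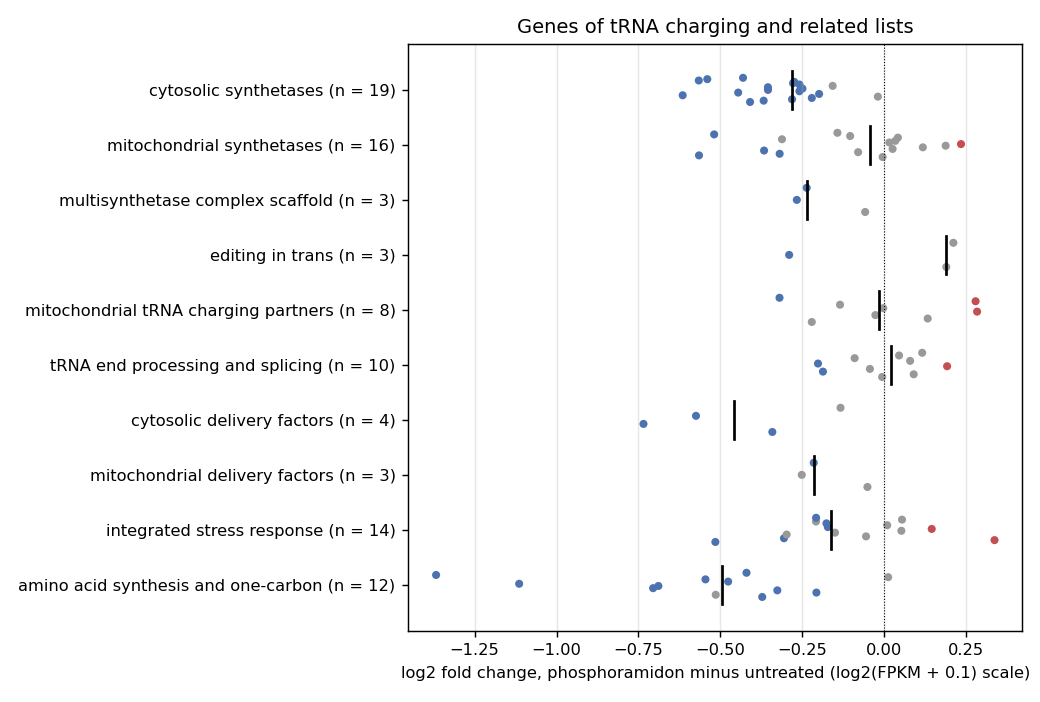
log2 fold change of each tested gene, phosphoramidon minus untreated, by list; blue points passed as lower, red as higher, grey did not pass, and black bars are medians. Medians were -0.49 for the ATF4 target list (labelled amino acid synthesis and one-carbon), -0.46 for cytosolic delivery factors and -0.28 for cytosolic synthetases. They were -0.24 for the complex scaffold, -0.21 for mitochondrial delivery factors, -0.16 for the integrated stress response and -0.04 for mitochondrial synthetases. The remaining lists had medians of -0.01 (mitochondrial charging partners), 0.02 (end processing and splicing) and 0.19 (editing in trans, the clearing of mischarged transfer RNA).

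Charged transfer RNA is brought to the ribosome by elongation factors. In the cytosol EEF1A1, EEF1A2 and EEF1B2 fell among 4 tested, beside 18.0% of all tested genes lower. Their log2 fold changes were -0.34, -0.73 and -0.57, while EEF1D had -0.13. EEF1A1 has many processed copies, so its level is uncertain. EEF1G was not analysed here. Of 3 mitochondrial genes TUFM, which carries charged transfer RNA to the mitochondrial ribosome, fell (57.9 ± 2.69 to 52.4 ± 2.39 FPKM, -0.21), beside the same 18.0%. GFM1 (-0.05) and the weakly measured TSFM (-0.25) did not pass. Among 8 partners of mitochondrial charging, MTFMT, which formylates the initiator methionine (0.28), and TRMU, which modifies mitochondrial transfer RNA (0.28), rose, and TRNT1, which adds the CCA end to transfer RNAs of both compartments, fell (-0.32). The amidotransferase genes GATB, GATC and QRSL1 did not pass, and 3 of 8 called is near the 33.6% of all tested genes. Of 10 genes of tRNA end processing and splicing, the ligase RTCB (-0.20) and the nuclease ELAC2 (-0.19) fell and OSGEP, of the complex that modifies transfer RNA next to the anticodon, rose (0.19), counts near the 18.0% lower and 15.6% higher of all tested genes. Of the 3 genes that clear mischarged transfer RNA, DTD1 fell (-0.29), beside 18.0% of all tested genes lower.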

How the data were processed

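RNA-seq values of 6 HK-2 libraries (3 untreated, 3 phosphoramidon) were deposited as FPKM per gene, 1 file per library. The submitters' processing notes name the build GRCh38 and, with no role or order, HISAT2 2.1.0, Trimmomatic 0.38, featureCounts 1.6.0, FastQC, MultiQC, CASAVA and DESeq2 1.22.1. What each was used for, which annotation was counted and whether strand was used is not given in the sources used here.

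Whole fragments were recovered from the deposited FPKM with the step that 1 fragment makes at each gene's length: 79.1% of the 34623 genes above 0 came out whole (within 0.05) at the GENCODE 29 exon length and 99.9% at some length. Symbols were found for 37892 of 38126 identifiers. Genes with at least 10 fragments in at least 3 libraries were kept. FPKM was divided by TMM factors (trims of 30% and 5%) computed from the recovered fragments, and log2(FPKM + 0.1) was tested with limma 3.58.1 (R 4.3.3; trended and robust), with Benjamini-Hochberg adjustment over all 16171 genes and a threshold of 0.05. Fold changes are on that scale and understate changes of low genes. A second limma test (treat) asked for a change above 1.5-fold. Pair ratios used an exact two-sided permutation test over libraries (scipy 1.17.1). The code was tested on simulated data. Alternatives were values as deposited, median-of-ratios factors, pseudocounts of 0.01 and 1, other filters, voom on recovered fragments, a replicate block, leaving out each library and, for the phenylalanine pair, a mean of logs.

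Members and lists were chosen with earlier results of these data known. Named with values in every library were the 8 cytosolic and 5 mitochondrial genes of lowest adjusted p. Further members shown in full (QARS1, FARSA, FARSB, EPRS1, MARS2, SARS2) were chosen after their values were seen. In each list all called genes were named where 5 or fewer were called, otherwise the 4 of lowest p; other names were chosen after their values were seen. In the integrated stress response list all 7 called genes are named. A planned comparison of protein sequences was not run. EEF1G and the markers CD3E and AQP2 were not analysed here, and some marker results are not reported here. Endothelial, leukocyte and loop and distal tubule marker lists each summed to at most 0.134 FPKM in any library.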

Additional observations from a re-analysis of the deposited data

How the results depend on the processing

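Across 8 other settings and 6 fits without 1 library each, 16 to 18 cytosolic genes fell, 0 rose and 4 mitochondrial genes fell. In the values as deposited 2 mitochondrial genes rose, the median log2 fold changes were -0.21 (cytosolic) and 0.027 (mitochondrial), and FARSB and AARS2, not called, changed sign to 0.052 and 0.066. Without a filter 0 mitochondrial genes rose and 1540 of all genes rose. Leaving out each library gave 16 to 18 cytosolic genes lower, 0 to 1 mitochondrial genes higher, cytosolic medians of -0.34 to -0.30, mitochondrial medians of -0.11 to -0.017, 1755 to 2158 of all genes higher, 2288 to 2752 lower, and 10 to 11 pairs lower without overlap. The same omissions turned the sign of values that were not called: FARSB (-0.045 to 0.011), AARS2 (-0.033 to 0.039), RARS2 (-0.0093 to 0.099), PARS2 (-0.052 to 0.10), FARS2 (-0.16 to 0.038), and the log2 ratio changes of EPRS1 to EARS2 (-0.058 to 0.14), WARS1 to WARS2 (-0.068 to 0.044) and SARS1 to SARS2 (-0.18 to 0.46). QARS1 passed with at least 50 fragments (adjusted p = 0.035) and without phosphoramidon replicate 1 (0.037). The cause was not tested. Same-numbered libraries deviated with correlations of 0.11, -0.02 and -0.01, so the numbers were not taken as pairing. A replicate block gave 18 cytosolic genes lower, 4 mitochondrial lower and 1 higher, and 2560 of all genes higher and 2894 lower; QARS1 passed (0.020). Depth limits SARS2, FARS2 and PARS2, with 26 to 58, 142 to 224 and 159 to 196 fragments per library. The protein sequence comparison was not run.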
